A study of Mus musculus with 502 samples.

Results

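B cells of the mouse kidney were taken as the columns of the deposited count table with at least 5 counts on Cd79a and at least 5 on Cd79b, the paired signalling chains of the B cell antigen receptor, and fewer than 5 counts on Cd3e, a T cell receptor subunit, and on C1qb, a complement chain made by macrophages. The members were thus chosen by measured counts of these 4 genes, and the rule gave 74 of 502 cells. The kidneys came from wild-type CD1 mice, an outbred stock, at about 3 weeks of age, with no transgene, deletion or drug in any group. They were either dissociated at once (fresh) or kept whole in HTS-FRS, a preservative for organ transplants, at 4 °C for 6 h or for 1, 2, 3 or 4 days before dissociation. Live Cd45+ cells were sorted singly and converted to full-length cDNA by SmartSeq2, and wells with little cDNA were not sequenced. The kidneys were not perfused, so B cells of the blood and of the tissue cannot be told apart. The labels name no animal and the methods give 1 mouse per timepoint, so a timepoint is 1 sample. No test, p-value or standard error was therefore made from the cells, and animal and time cannot be told apart.

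A mature B cell carries an antigen receptor made of an immunoglobulin and the Cd79a and Cd79b chains, which pass the signal to kinases inside the cell. It takes up antigen through this receptor and presents it to T cells on MHC class II molecules. Naive B cells that circulate through lymphoid tissue carry IgM and IgD together and the low-affinity IgE receptor Fcer2a (CD23), whereas cells newly made in the bone marrow carry IgM with little IgD or CD23. B cells are a minority of the immune cells of a healthy kidney.

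Each cell's label also carries a number taken here as that of its library pool, called pool A, B or C. The 6 h and day 2 cells were all of pool A and the day 1 and day 3 cells all of pool B. Fresh cells were of pools A and B, and the day 4 cells were spread over all 3, with 19 of pool B, 14 of pool C and 2 of pool A. The fresh, day 1, day 3 and day 4 B cells were all of pool B, and the 6 h and day 2 B cells were all of pool A. Fresh kidney cells of pool A included 0 B cells among 75, for which 3 counts would be 4% and the exact interval runs to 4.80%. Timepoints were therefore set against each other only within a pool, day 1 against fresh in pool B and day 2 against 6 h in pool A, and across pools the values are given side by side. Index pairs recurred between pools, 53 of the 74 B cells had an index pair also found in another pool, and for 8 of them the partner was a B cell too. No 2 columns of the table were identical.

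B cells made up 19.8% of the fresh cells of pool B (16 of 81; exact 95% binomial interval 11.7 to 30.1%). The share was 10.53% at 6 h (8 of 76; 4.66 to 19.7%), 18.7% at day 1 (14 of 75; 10.6 to 29.3%) and 37.2% at day 2 (29 of 78; 26.5 to 48.9%). It was 6.10% at day 3 (5 of 82; 2.01 to 13.7%) and 5.71% at day 4 (2 of 35; 0.70 to 19.2%). Both day 4 B cells were of pool B, where the share was 10.5% (2 of 19; 1.30 to 33.1%), with 0 of 14 in pool C and 0 of 2 in pool A. Over the fresh cells of both pools the share was 10.26% (5.98 to 16.1%). Within pool B the intervals of fresh, day 1, day 3 and day 4 all overlapped each other. Within pool A the interval of day 2 lay above those of 6 h and of the fresh cells. These intervals cover counting error only. The choice of sequenced wells by cDNA yield, the animal and the time were not separated.

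**Figure D1:**
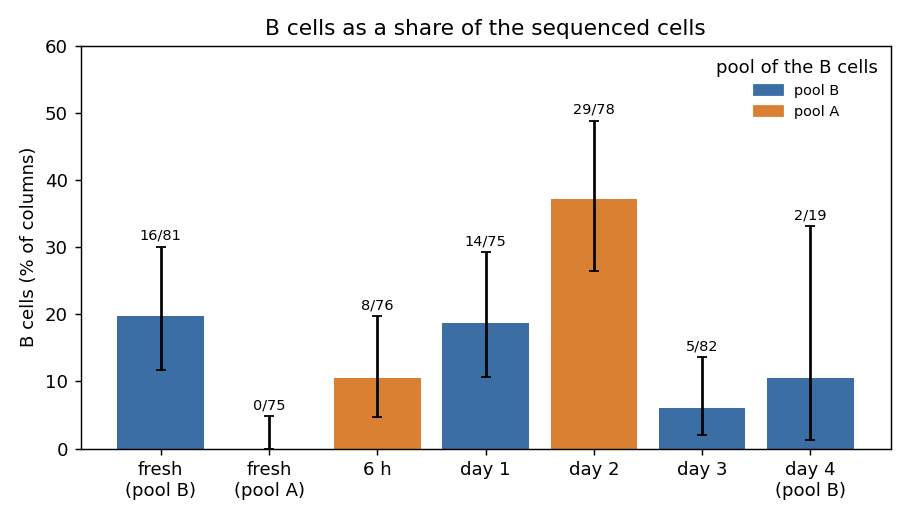
Share of B cells among the sequenced cells (y axis, percent) by timepoint, with fresh cells split by pool and day 4 shown for pool B; bars carry exact 95% binomial intervals and the number of B cells over all cells. Day 2 stands at 37.2%, the fresh cells of pool A at 0 of 75, day 3 at 6.10% and day 4 at 2 of 19.

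The threshold was not crowded. The member with the lowest counts on both genes had 32 on Cd79a and 9 on Cd79b, and was a day 3 cell described further on. In all, 77 columns reached 5 counts on both genes, and 3 of them were left out by the other markers: a 6 h cell with 20 and 28 counts beside 5288 on C1qb, a day 2 cell with 2339 and 2243 beside 83 on Cd3e and 733 on C1qb, and a fresh cell with 2251 and 1052 beside 28 on C1qb. Just outside stood a day 4 cell with 3 and 4 counts, which had 1553 counts on C1qb. Another 23 columns had at least 5 counts on Cd79b and none on Cd79a, and 17 of these had at least 5 on C1qb. No column had at least 5 counts on Cd79a and fewer than 5 on Cd79b.

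The B cells held a median of 724591 counts on genes (191392 to 1299802). A median of 1793 genes was read per cell (813 to 3216), and 1364.5 after each cell was thinned to 100000 counts. Fresh cells had a median of 1827 genes and day 1 cells 1773. The median was 1911 for 6 h, 1660 for day 2, 1578 for day 3 and 1216.5 for the last day, with ranges that overlapped except for the pair of day 4 cells (1130 and 1303) against 6 h (1382 to 2688). Counts on mitochondrial genes were a median of 3.83% of the total, with the highest cells at day 1: 1 cell had 11.9%, with 813 genes, and another 8.80%, with 2332. Leaving out either kept the share of genes higher at day 1 (described further on) at 24.2 and 20.7%. The day 4 pair had 6.24 and 6.74%. The 18S ribosomal RNA followed the pool, with medians of 98492 rpm (reads of the gene per 1000000 on all genes) in fresh cells and 80807 at day 1 but 40652 at 6 h and 42538 at day 2. Of 13527 genes read in any B cell, 34 were read in all 74 and 619 in at least 50%, so most genes were seen in some cells and missed in others at this depth.

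The label held against markers that the rule did not name. Shares of cells with at least 5 counts were compared between the 74 B cells and the 428 other cells as a description, since the rule used this contrast. Of 17255 genes, 20 had a share higher in B cells by at least 50 percentage points (0.116%) and 7 a share lower by as much (0.0406%). The 20 include Cd79a and Cd79b, which the rule required and which are therefore no support for the label. Ms4a1 (CD20) reached 5 counts in 73% of B cells and 0.70% of the others, Fcer2a in 60.8% and 0.47%, and Pax5, the factor that commits cells to the B lineage, in 54.1% and 0.47%. Ly6d (85.1% and 0.70%), the IgM Fc receptor Fcmr (68.9% and 0.47%), the inhibitory lectin Siglecg (66.2% and 2.57%), the kinase Blk (62.2% and 0.70%) and the BAFF receptor Tnfrsf13c (59.5% and 1.64%) were further genes of this kind. Among genes lower in B cells, the T cell and myeloid adaptor Lcp2 reached 5 counts in 0% against 56.5%, Fyb in 1.35% against 65.9%, and Fxyd5 in 8.11% against 83.9%.

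Of 57 markers of other cell types, 25 had no count in any B cell. At least 1 T cell marker reached 5 counts in 5 cells, a macrophage marker in 14 and an NK cell marker in 1. A kidney epithelium marker did so in 6 cells, with a highest sum of 1361 rpm, and a marker of dendritic cells, erythroid cells and group 2 innate lymphoid cells in 1 each. No neutrophil marker reached it. The fresh cells held 0 counts on the 8 epithelium markers, against cells with at least 5 counts at 6 h (3), day 1 (1) and day 2 (2) and 0 counts at days 3 and 4. Macrophage markers summed to a median of 0 rpm over all B cells, with the highest cell at 3729.6 rpm, and C1qa and C1qc never reached 5 counts, beside C1qb, which the rule kept under 5. Pecam1, an adhesion molecule of endothelium and of leukocytes, reached 5 counts in 20 cells while Kdr and Emcn had no count in any. One day 3 cell stood apart. It had 3216 genes, 679 counts on Cd3d, 2167 on the NK receptor Ncr1, 2673 on Nkg7 and 3287 on Gzma beside its 32 on Cd79a, 9 on Cd79b and 946 on Ighm. It stays among the 74 because it meets the rule, and values at day 3 are to be read with that in mind.

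IgM was the heavy chain of these cells. Ighm, the constant region of IgM (chr12:113418558-113422730, minus strand, GRCm38), was read in all 74 with a median of 7834 rpm (814 to 23983). It was also read in 49.8% of the 428 other cells, whose median was 0 rpm, whereas the kappa constant gene Igkc was read in all 74 B cells and in 14 of the 428 others. Ighd, the constant region of IgD, which is spliced from the same transcript as IgM (chr12:113406604-113416324, minus strand), was read in 64 of the 74 B cells and in 12 of the others. Another heavy class, Ighg3, was read in 2 B cells, 1 fresh and 1 at 6 h, and Ighg1, Ighg2b, Ighg2c, Igha and Ighe in none.

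Ighd differed between timepoints. Ighd was read in every fresh cell, with a lowest level of 820 rpm, a median of 3691 and a highest of 8289. At day 1 of the same pool 10 of the 14 cells were at or under 88.8 rpm and the other 4 lay at 946, 1759, 1858 and 2865 rpm, with a median of 50.2. Thus 10 of the 14 day 1 cells lay under the lowest fresh cell, and the other 4 lay within the fresh range. The mean of log2(rpm + 1) was lower at day 1 by 5.94. In pool A the median was 1013 rpm at 6 h (0 to 1667, read in 6 of 8 cells) and 2631 at day 2 (0 to 8865, read in 26 of 29), and these ranges overlapped. The 5 day 3 cells stood at 0, 27.5, 525, 2847 and 5363 rpm, and the pair of day 4 cells at 0 and 300.3 rpm. As a share of Ighm plus Ighd counts, not corrected for length, Ighd had a median of 39.9% in fresh cells (12.9 to 84.9%) against 0.45% on day 1. It was 6.25% for 6 h and 25.4% for day 2, and 6.09% and 1.36% for the last pair of days. Leaving out the cell with the T and NK cell markers leaves 4 day 3 cells between 0 and 5363 rpm.

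Fcer2a, the IgE receptor of naive follicular B cells (chr8:3681737-3694175, minus strand), was read in most fresh and day 2 cells and in few or none at 6 h and day 1. It was read in 14 of 16 fresh cells with a median of 2197 rpm (0 to 5049). It was read in 0 of 8 cells at 6 h, where a count of 0 allows a share of up to 37.5%, and in 4 of 14 at day 1, at 151.5, 839, 996 and 1963 rpm. At day 2 it was read in 24 of 29 cells with a median of 1167 rpm (0 to 4232). Fresh and day 2 were therefore high and 6 h, day 1 and day 4 (0 of 2) low, and both high groups also held cells with no read. At day 3 it was read in 3 of 5 cells, at 6.02, 556 and 1137 rpm. Thinning to 100000 counts left 87.5% of fresh, 0% of 6 h, 28.6% of day 1 and 79.3% of day 2 cells with a read. With the 0 at 6 h set to 3 counts over the group, the summed level at day 2 was 3921-fold that at 6 h. This is no lower bound, since reads are not independent molecules. Fcer2a headed the lower genes of day 1 against fresh (a difference of -6.99 on the log2 scale, where the difference of the summed level was -3.15) and the higher genes of day 2 against 6 h (8.19). In each comparison it passed the filter only through the timepoint where it was higher.

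Fcer2a and Ighd were both read in 43 cells, 2 had Fcer2a only, 21 had Ighd only and 8 had neither. In pool B 14 of 16 fresh cells had both against 4 of 14 at day 1. In pool A 0 of 8 had both at 6 h against 22 of 29 at day 2. Day 3 had 3 such cells and day 4 had 0, so the pooled count mixes timepoints with unlike shares. Of the 17 B cells with a read of Cr2, a complement receptor, 16 also had a read of Fcer2a. Cr2 was read in 8 of 16 fresh cells and in 1 of 14 at day 1, a difference of -3.15 on the log2 scale.

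**Figure D2:**
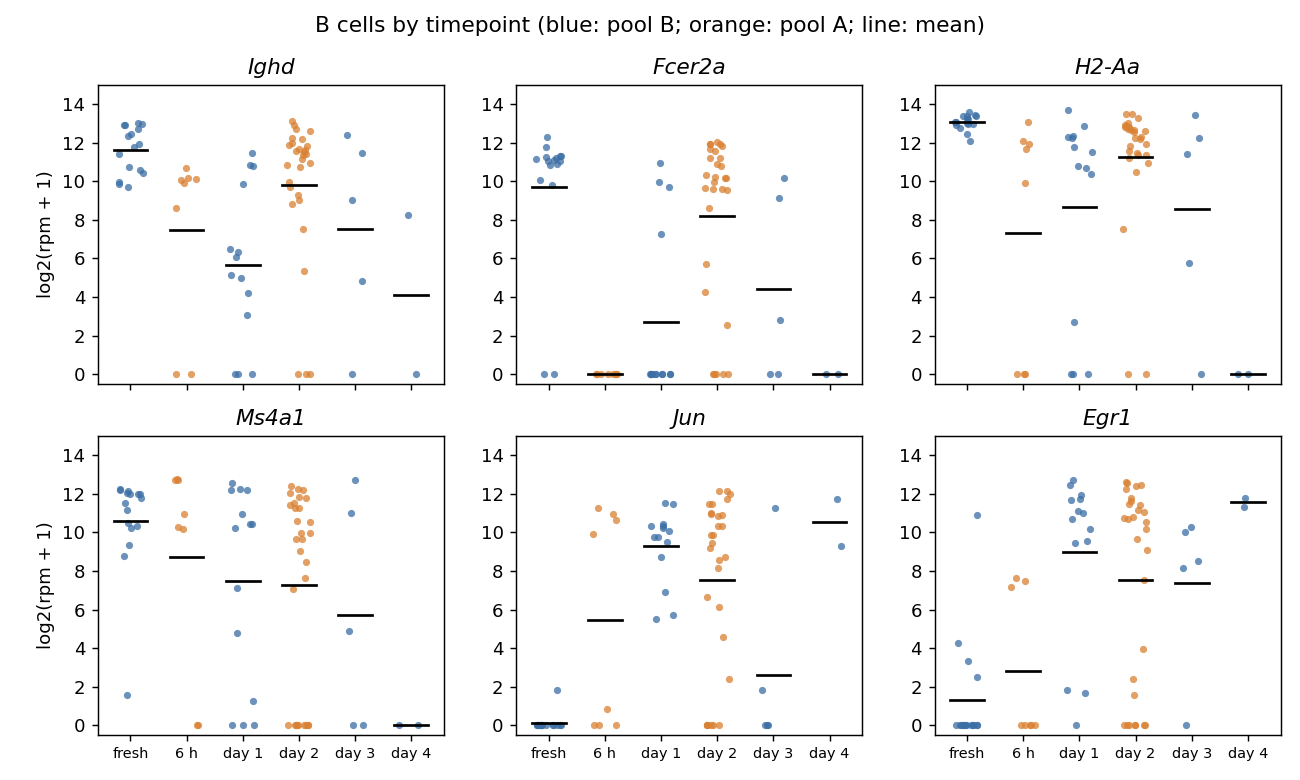
Levels of 6 genes in each of the 74 B cells (y axis, log2 of rpm + 1) by timepoint (x axis), with blue points for pool B, orange for pool A and a black line at the mean. Ighd and Fcer2a are high in fresh and day 2 cells, Jun is read in 1 of 16 fresh and in 14 of 14 day 1 cells, and most panels hold cells at 0 beside cells at high levels.

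Within pool B, 21.8% of 1187 genes were higher at day 1 than in fresh B cells by at least 1 on the log2 scale, and 38.5% were lower. Within pool A, 9.55% of 1413 genes were higher at day 2 than at 6 h and 41.6% were lower. Only genes with a read in 50% or more of the cells of 1 of the timepoints entered, and the quantity is the difference between timepoints in the mean over cells of log2(rpm + 1). It mixes how many cells had a read with how high the level was, and it moves with the 1 added. The median over all genes compared was -0.52 for day 1 and -0.57 for day 2, and each list below is to be read against that. Higher genes were 36.2% of those past the threshold at day 1, but 44.8% when counts were summed over cells first, 47.9% with TMM scaling and 48.9% with DESeq2 size factors. At day 2 they were 18.7%, against 29.7%, 48.3% and 43%, so that the surplus of lower genes there depended on the scale. With summed counts the median over all genes was -0.24 at day 1 and -0.13 at day 2, and 17.6% of genes were higher and 21.7% lower at day 1, against 9.55% and 22.6% at day 2. A gene that passed the filter through 1 timepoint alone tended to be high there by that choice. The lists, ribosomal proteins aside, are therefore also counted over all their members with no filter. Those counts are to be read against all genes with no filter, where 10.4% of 10271 were higher and 13.8% lower at day 1. At day 2 6.35% of 11264 were higher and 18.2% lower.

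The antigen presentation genes were lower at day 1 than in fresh cells of pool B, and most were higher at day 2 than at 6 h in pool A. MHC class II molecules are pairs of an alpha and a beta chain (H2-Aa with H2-Ab1), kept unloaded by the invariant chain Cd74 and loaded with peptide by H2-DM, which H2-O holds back; Ciita switches these genes on. Of the 10 listed genes 8 were measured at day 1 against fresh, and 8 were lower and 0 higher, beside 38.5% of all genes lower, with a median of -3.75. Of these, 2 passed the filter through the fresh cells alone, and with no filter all 10 were lower, with a median of -3.47. At day 2 against 6 h 8 were measured, and 6 were higher and 0 lower, beside 9.55% of all genes higher, with a median of 1.76, and with no filter 7 of 10 were higher and 0 lower. With counts summed over cells the medians were -1.42 and 0.73, with 7 of 8 lower at day 1 and 2 of 8 higher at day 2.

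H2-Aa (chr17:34282744-34287823, minus strand) had a median of 8620 rpm in fresh cells (4328 to 12281, 16 of 16 read). At day 1 the median was 2355 rpm (0 to 13271, 11 of 14 read). The ranges overlapped at the top, and the day 1 group held cells at 0 that the fresh group did not. At 6 h the 8 cells had 0, 0, 0, 952, 3274, 3948, 4370 and 8539 rpm, and at day 2 the median was 5006 rpm (0 to 11719, 27 of 29 read). The differences were -4.39 at day 1 and 3.95 at day 2 on the log2 scale, and -1.65 and 0.89 with summed counts, the second under the threshold. At day 4 H2-Aa had no count in either cell.

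Cd74 kept a read in all 14 day 1 cells, with a median of 7270 rpm (231.2 to 13788) against 12070 (7002 to 16081) in fresh cells, and it differed by -1.21, the smallest difference of the 8 genes, and -0.90 with summed counts. Ciita, read in 12 of 16 fresh cells with a median of 324 rpm, was read in 4 of 14 at day 1 with 1 cell above 5 counts, a difference of -5.55. H2-Ob, the beta chain of H2-O, was read in 12 of 16 and in 4 of 14 (-4.81). In pool A Ciita was read in 3 of 8 cells at 6 h and in 11 of 29 at day 2, too few for the filter. H2-DMb1 and H2-DMb2 are near-identical neighbours and reads between them are uncertain.

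The summed level of the 10 genes was even in fresh cells and uneven in preserved ones. It lay between 26386 and 43279 rpm in the 16 fresh cells, with a median of 34598. Day 1 cells had a median of 15729 rpm (233.4 to 40738). The median was 19504 rpm for 6 h (0 to 40403) and 29872 for day 2 (0 to 55532). It was 10193 for day 3, and 12 and 734 in the pair of day 4 cells. The sum was at or under 734 rpm in 9 cells, and the next cell stood at 2192 rpm, a limit set after the values were seen. None of the 9 was fresh; 3 came from the 6 h kidney, 2 each from days 2 and 4, and 1 each from days 1 and 3. In 8 of the 9 Fcer2a had no count and Vpreb3, a chaperone of the surrogate light chain of precursor B cells, was read, where Fcer2a had no count in 29 and Vpreb3 was read in 35 of all 74. The 6 h and day 4 cells, 5 of the 9, came from timepoints where no cell had Fcer2a. The ninth was the day 3 cell with the T and NK cell markers.

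**Figure D3:**
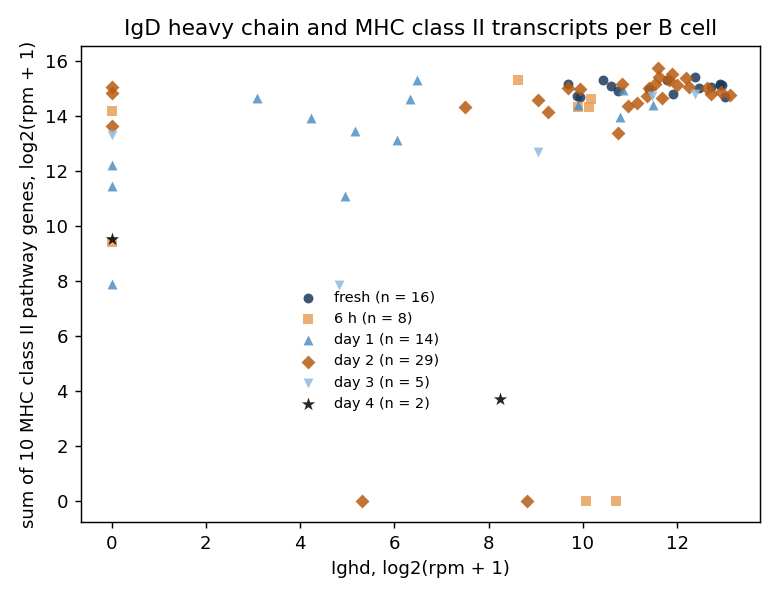
Summed level of 10 MHC class II pathway genes (y axis, log2 of rpm + 1) against Ighd (x axis, log2 of rpm + 1), 1 point per B cell, with marker shape and shade for the timepoint. The 16 fresh cells sit together at the upper right, between 26386 and 43279 rpm of MHC class II, while the low points are preserved cells.

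Over the 74 cells the MHC class II sum and Ighd had a Spearman correlation of 0.60 and a Pearson correlation of 0.28 on log2(rpm + 1), given as a description since the cells share animals and pools. Within timepoints the Spearman value was 0.05 in fresh cells (n = 16), -0.12 at 6 h (n = 8), 0.64 at day 1 (n = 14) and 0.50 at day 2 (n = 29). The Spearman value of the sum with Vpreb3 was -0.43 over all cells, 0.13 in fresh cells, -0.54 at 6 h, -0.47 at day 1 and -0.57 at day 2. The Spearman value between the sum and Jun was -0.16 over all cells, 0.08 in fresh cells, -0.79 at 6 h, 0.13 at day 1 and 0.29 at day 2.

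The promoters of these genes are shown because all 10 genes were lower at day 1 and 7 of 10 higher at day 2 with no filter. The sequences are the 100 bases before the start of the gene in RefSeq (GRCm38.p6), on the strand of the gene, with the first match of ATTGG in capitals; ATTGG is the reverse complement of CCAAT, the core of the Y box of MHC class II promoters. ATTGG was searched on both strands in the 250 bases before the start. It was found in 34.2% of 32851 promoters and in all 7 listed genes that were counted. In 6 of the 7 it lay within 100 bases, where 19.3% of all promoters had it. The 7 leave out Cd74, which was set aside before the count, and H2-Ab1 and Ciita. A match is a description of letters and not a site of binding.
H2-Aa, chr17:34287824-34287923, minus strand: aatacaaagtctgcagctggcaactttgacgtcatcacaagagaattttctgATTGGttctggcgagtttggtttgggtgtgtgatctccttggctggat
H2-Ob, chr17:34238805-34238904, plus strand: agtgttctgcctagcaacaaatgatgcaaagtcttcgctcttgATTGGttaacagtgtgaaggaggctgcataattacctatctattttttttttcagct
H2-DMb1, chr17:34153091-34153190, plus strand: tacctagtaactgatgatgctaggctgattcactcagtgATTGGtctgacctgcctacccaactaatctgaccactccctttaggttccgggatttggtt
H2-DMb2, chr17:34145149-34145248, plus strand: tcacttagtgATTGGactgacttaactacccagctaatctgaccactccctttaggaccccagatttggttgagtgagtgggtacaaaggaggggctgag

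Most immediate early and heat shock genes were higher at day 1 than in fresh cells. These genes, such as the AP-1 subunits Jun and Fos and the chaperone Hspa8, are switched on within minutes by stress, including the warm enzymatic dissociation of tissue. Of the 20 listed genes 18 were measured at day 1 against fresh, and 16 were higher and 0 lower, beside 21.8% of all genes higher, with a median of 3.46. Of the 18, 9 passed the filter through the day 1 cells alone, Jun, Egr1 and Hspa1b among them, and with no filter 18 of 20 were higher and 0 lower. With summed counts 15 were higher and 0 lower, with a median of 2.72. At day 2 against 6 h 16 were measured, with 6 higher and 5 lower, beside 9.55% and 41.6% of all genes, and a median of 0.59. With summed counts 6 were higher and 0 lower. With no filter 8 of 20 were higher and 5 lower, with a median of 0.62. The other cells of pool B also differed: Jun was read in 13 of 65 other fresh cells and in 47 of 61 at day 1.

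Jun (chr4:95049034-95052222, minus strand) had 1 count in 16 fresh B cells (exact Poisson interval 0.0253 to 5.57 counts). At day 1 it was read in 14 of 14 cells, between 44.6 and 2936 rpm with a median of 975, and 8452 counts in all (8273 to 8634). These intervals cover counting error only, and the spread between cells was far wider. The fresh and day 1 cells did not overlap. The difference of 9.18 on the log2 scale headed the higher genes of day 1. In pool A Jun was read in 5 of 8 cells at 6 h (median 483 rpm) and in 23 of 29 at day 2 (median 703), with overlapping ranges. Its promoter is shown with the AP-1-like element TGACATCA in capitals, found in 3.04% of all promoters within 250 bases before the start and in 2.08% within 100.
Jun, chr4:95052223-95052322, minus strand: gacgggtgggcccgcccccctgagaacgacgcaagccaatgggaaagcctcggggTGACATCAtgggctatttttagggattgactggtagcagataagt

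Egr1, a zinc finger factor induced by receptor signals, was read in 4 of 16 fresh cells, where 1 cell held 98.8% of its counts, and in 13 of 14 at day 1 with a median of 1845 rpm (0 to 6807). It was also higher at day 2 (22 of 29 cells, median 1515 rpm) than at 6 h (3 of 8, highest 200 rpm), by 4.73. The chaperone Dnaja1 was read in 4 of 16 and 13 of 14 cells, a difference of 6.95 (2.94 with summed counts), whereas among the other cells of pool B it was read in 47 of 65 fresh and 44 of 61 at day 1. Fosb (5 of 16 and 11 of 14) and Gadd45b (2 of 16 and 11 of 14) differed by 5.47 and 5.72 (3.63 and 2.80 with summed counts). Fos was read in most cells of both timepoints, with medians of 1274 and 8218 rpm and a difference of 3.15. Hspa1b had no count in fresh cells and was read in 8 of 14 at day 1. Its summed level was 555-fold higher with the 0 set to 3 counts, which is no lower bound. Hspa1a and Hspa1b are near-identical and their counts cannot be assigned with certainty. Rbm3, induced by cold, went the other way, read in 13 of 16 fresh cells and 5 of 14 at day 1 (-3.86, and -1.96 with summed counts). It passed the filter through the fresh cells alone.

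Some NF-kB target genes, which feed back on antigen receptor signalling, were higher at day 1. Of 16 listed, 7 were measured, with 5 higher and 1 lower and a median of 2.06, beside 21.8% of all genes higher and 38.5% lower. Of the 7, 3 passed through the day 1 cells alone, and with no filter 6 of 16 were higher and 2 lower, with a median of 0.34. With summed counts 4 of the 7 were higher and 0 lower, with a median of 1.68. Nfkbia, the inhibitor of NF-kB, had medians of 1373 rpm at day 1 and 32.9 in fresh cells (5.05), and Nfkbid 1023 and 3.36 (4.25). Rel was the lower one (-1.58), although its median was 1848 rpm at day 1 against 1456, where 3 day 1 cells and 1 fresh cell had no read, and with summed counts the difference was 0.13. At day 2 against 6 h 3 passed the filter, with 1 higher and 0 lower, beside 9.55% and 41.6% of all genes. With no filter 7 of 16 were higher and 0 lower there, with a median of 0.41.

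**Figure D4:**
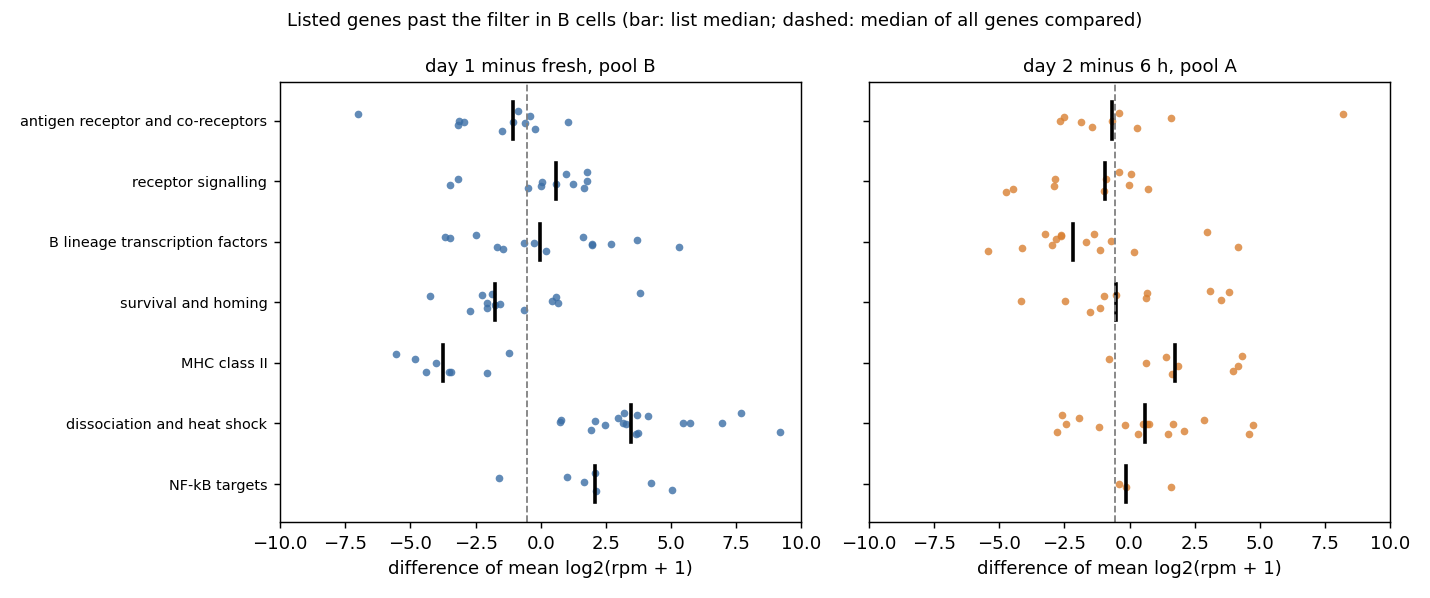
Differences of mean log2(rpm + 1) for the listed genes past the filter (x axis), day 1 minus fresh in pool B on the left and day 2 minus 6 h in pool A on the right, with a bar at the list's median and a dashed line at the median of all genes compared (-0.52 and -0.57). MHC class II lies left of the dashed line at day 1 and, but for H2-Eb1 (-0.80), right of it at day 2, and the dissociation and heat shock list lies right of it at day 1.

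The signalling chains of the receptor were required by the rule, so their levels are a description. Cd79a had a median of 3089 rpm in fresh cells and 2206 at day 1 (-0.62), and 3140 at 6 h and 3603 at day 2 (0.29). Cd79b had a median of 2043 rpm in fresh cells and 2209 at day 1 (-0.41), and 4426 at 6 h and 3061 at day 2 (-0.39). Of the 13 receptor and co-receptor genes 11 were measured at day 1, with 1 higher (Cd72, 1.06) and 6 lower, beside 21.8% and 38.5% of all genes, and a median of -1.07. With summed counts 0 were higher and 3 lower, with a median of -0.50. With no filter 1 of 13 was higher and 7 lower, with a median of -1.07. At day 2 9 were measured, with 2 higher and 4 lower, beside 9.55% and 41.6% of all genes, and a median of -0.68. With summed counts 2 of the 9 were higher and 1 lower, with a median of -0.31. With no filter 3 of 13 were higher and 4 lower, with a median of -0.39. Ms4a1 (CD20; chr19:11249675-11266241, minus strand) was read in all 16 fresh cells with a median of 3213 rpm (1.98 to 4899). At day 1 it was read in 11 of 14 with a median of 1282 (0 to 5986), a difference of -3.16, which was -0.50 with summed counts and then under the threshold of 1. At day 2 the difference from 6 h was -1.44 and turned to 1.59 when the cells with at least 5 counts on a T cell, NK cell or macrophage marker were left out, 3 of them of 6 h, so no direction is given there. Cd22, an inhibitory lectin, was lower at day 1 (15 of 16 and 8 of 14 cells, -2.95, but -0.21 with summed counts) and higher at day 2 (3 of 8 and 16 of 29, 1.58).

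Kinases and adaptors of the receptor pathway were measured in 11 of 17 at day 1, with 4 higher, 2 lower and a median of 0.57, beside 21.8% of all genes higher and 38.5% lower. The scaffold Bank1 (-3.47) and the phosphatase Inpp5d (-3.16), which dampen the signal or shape it, were the lower pair, and Syk, the first kinase to bind Cd79a, was higher (1.66) with 443 against 186.8 rpm. With no filter 5 of 17 were higher and 4 lower, with a median of 0.04. With summed counts 1 of the 11 was higher and 1 lower, and Syk (-0.05) and Inpp5d (-0.61) were under the threshold. At day 2 against 6 h 10 were measured, with 0 higher and 4 lower, beside 9.55% and 41.6% of all genes, and a median of -0.95. With summed counts 2 of the 10 were higher and 1 lower, with a median of 0.10. With no filter 2 of 17 were higher and 4 lower, with a median of -0.15. Lyn, the kinase that starts the signal, was read in 8 of 8 cells at 6 h and 12 of 29 at day 2, a difference of -4.47, but of -0.63 with summed counts.

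The B lineage factors held both higher and lower genes at day 1. Of 16 listed, 14 were measured, with 6 higher and 5 lower, beside 21.8% and 38.5% of all genes, and a median of -0.03, and with summed counts 3 were higher and 2 lower. With no filter 6 were higher and 5 lower of the 15 without Spi1, with a median of 0.22. Klf2, which keeps lymphocytes quiescent and sets their homing, was higher (5.32), read in 14 of 14 cells with a median of 1157 rpm against 46.4. Irf4, needed for plasma cell formation, was higher (3.69), while Irf8 (-3.48, but -0.78 with summed counts) and Mef2c (-3.68) were lower. At day 2 against 6 h Irf8 (2.96) and Mef2c (4.17) were the 2 higher and 10 of 14 were lower, Spib by -5.41, beside 9.55% and 41.6% of all genes, with a median of -2.16. Of the 14, 10 passed the filter through the 6 h cells alone. With summed counts that median was -0.09, with 3 higher and 4 lower. With no filter 2 of the 15 were higher and 10 lower, with a median of -1.68. Pax5 was read in 16 of 16 fresh and 10 of 14 day 1 cells, in 5 of 8 for 6 h against 9 of 29 for day 2, and in all cells of days 3 and 4.

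Survival and homing genes were measured in 13 of 13 at day 1, with 1 higher, 8 lower and a median of -1.74, beside 38.5% of all genes lower. With summed counts 2 were higher and 4 lower, with a median of -0.42 against -0.24 over all genes. The higher one was Cd24a, a surface protein high on young B cells (3.81), read in 11 of 14 and 7 of 16 cells. Fcmr was lower (-4.26), whereas Ccr7, a chemokine receptor for entry into lymph nodes, differed by 0.43. At day 2 3 of 11 were higher, among them Fcmr (3.51) and the cytokine Ltb (3.09), and 4 were lower, beside 9.55% and 41.6% of all genes, but with summed counts 1 was higher and 2 lower, with Fcmr at 0.99 and Ltb at 0.95. With no filter 5 of 13 were higher and 4 lower there, with a median of 0.63. S1pr1, which guides exit from lymphoid tissue, was read in 8 of 8 cells at 6 h and 17 of 29 at day 2 (-4.17).

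Beyond the lists, the genes with the widest difference at day 1 included Myadm (6.02) and the cyclin Ccnl1 (5.36) on the higher side. Of the genes named in this paragraph, only Ccnl1, Shisa5 and Stk17b at day 1 and Ppp1r15a at day 2 passed the filter in both timepoints. The others passed only through the timepoint where they were higher, so their differences are partly set by that choice. On the lower side were Grcc10 (-5.80), the lysosomal protease Lgmn (-5.27), Tspan13 (-5.20), Shisa5 (-5.19) and the kinase Stk17b (-4.90). Lgmn was read in 0 of 14 cells at day 1, 1046-fold lower by the summed level with the 0 set to 3 counts. At day 2 against 6 h the higher ones included Arhgef1 (5.64), the stress gene Ppp1r15a (4.96), Shisa5 (4.94), Txnip (4.69) and the chaperone Dnajb1 (4.57). The lower ones included Cnp (-6.92), Gpd1l (-6.38), Pafah1b3 (-5.97), the interferon factor Irf1 (-5.85), Srpk3 (-5.64), Myadm (-5.63) and Mctp2 (-5.60). Mctp2 was read in 0 of 29 cells at day 2, 4043-fold lower by the summed level with the 0 set to 3 counts. Neither fold is a lower bound. With summed counts the differences were smaller for several: at day 1 Myadm had 1.99, Ccnl1 2.70, Grcc10 -2.50, Shisa5 -2.09 and Stk17b -1.39. At day 2 they were 1.62 for Arhgef1, 1.28 for Shisa5, 1.77 for Txnip, -2.34 for Cnp, -2.46 for Irf1 and -1.16 for Srpk3. Shisa5 and Myadm thus appear in both comparisons with opposite signs. Ribosomal protein genes were lower at day 1 in 36 of 78, beside 38.5% of all genes, and higher in 0 (median -0.87). They were higher at day 2 in 24 of 80, beside 9.55% of all genes, and lower in 4 (median 0.37); with summed counts these were 9 of 78 lower and 4 of 80 higher.

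Of the 10 listed genes of B cell precursors and transitional cells, the pair of day 4 cells had reads on 5 and on 4. Rag1, the recombinase that cuts immunoglobulin genes and is off in mature B cells, was read in both, at 917 and 284 rpm. It was read in 2 of the other 72 B cells, at 34.7 rpm at 6 h and 10.3 rpm at day 2, and in 0 of the 428 other cells. Myb was at 625 and 686 rpm and Vpreb3 at 68.1 and 691 rpm, where Myb was read in 7 and Vpreb3 in 35 of all 74 B cells. The first cell also had Cd93 (1181 rpm), Sox4 (1778) and Foxo1 (3300), and the second had Il7r (365) and Irf4 (2845). Ebf1 was read in both, at 693 and 1374 rpm. Ms4a1, Fcer2a and H2-Aa had no count in either cell, and the precursor genes Rag2, Dntt and Vpreb1 had none in any of the 74 B cells, nor Igll1 in the day 4 pair. With 2 cells, no level is given for the timepoint.

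Most markers of other B cell states were read in few cells. Mzb1, a chaperone of marginal zone, B1 and plasma cells, was read in 41 of 74 cells and reached 5 counts in 51.4%, and Irf4 was read in 40. Mki67, a marker of cycling cells, was read in 1 of the 74 cells, of day 1. Sdc1 was read in 3, Prdm1 in 1, and Jchain, the joining chain of secreted IgM, and Cd5, a marker of B1 cells that 63 of the other cells had, in 0. Cd9, of marginal zone and B1 cells, was read in 2. The early activation receptor Cd69 was read in 50 of 74 cells, with medians of 1635 rpm in fresh and 1107 in day 1 cells. The median was 626 rpm at day 2, and the ranges overlapped between timepoints.

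The immunoglobulin genes read in a cell mark its clone, since each B cell joins 1 heavy and 1 light chain variable segment. Heavy V segments were read in 72 cells, where the leading segment took a median of 96.1% of the cell's Ighv counts (39.1 to 100%), and kappa V segments in all 74 with a median of 99.1% (26.6 to 100%). In pool B the leading heavy share had a median of 63.6% in fresh cells and 84.3% at day 1, over medians of 124.5 and 245.5 heavy V counts. In pool A it was 99.97% at 6 h and 99.89% at day 2, over medians of 1144 and 817 heavy V counts. In the 72 cells 45 different Ighv segments led, 26 of them in 1 cell only, and 42 kappa segments led in 74 cells. Ighv2-2 led in 5 cells, Igkv10-96 in 8 and Igkv1-110 in 6. All 72 pairs of leading heavy and kappa segments were distinct, so no 2 cells shared a pair. V segments of a family are near-identical and short reads between them are uncertain.

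The light chain could not be called from the constant genes alone. By the larger sum of counts, 58 cells were kappa and 16 lambda (21.6%; exact binomial interval 12.9 to 32.7%). All 16 had counts on kappa V segments, up to 1650, and 11 of them had 0 counts on lambda V segments. Lambda constant genes were read in 66 of the 74 cells. By variable segments, 1 cell, of day 1, had more lambda than kappa V counts.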

How the data were processed

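Single live Cd45+ cells from mouse kidneys were profiled in 502 columns, 1 per cell. The authors cut reads to 75 bp, took out duplicates (picard), mapped to GRCm38 (STAR), counted per gene without strand (HTSeq) and deposited the raw counts, not normalized. Tool versions: not given in the sources used here. Without strand, overlapping genes on opposite strands cannot be told apart, and, with no molecular identifiers, reads are not independent molecules.

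Here 96 spike-in rows (0.000237% of B cell counts) and 1 vector row (0.141%) were left out, which left 46603 gene rows. Counts per cell were divided by the total on genes (rpm) and averaged as log2(rpm + 1). Genes read in 50% of cells at either of the 2 timepoints were compared, immunoglobulin genes left out, and a difference of at least 1 was counted as higher or lower. Summed counts were scaled by totals, TMM (edgeR 4.0.16) or DESeq2 1.42.0 size factors, in R 4.3.3. Python 3.11.15 was used for the rest. Shares have exact Clopper-Pearson and sums exact Poisson 95% intervals. For folds a count of 0 was set to 3 counts over the group, which is no lower bound where reads are not independent molecules. Totals per B cell ran from 191392 to 1299802. Named genes are all genes of the lists, the 8 highest and 8 lowest differences within each pool, and the 20 widest share differences between B cells and other cells. The members and lists were chosen with earlier results of these data known. Some genes that this rule names are not reported here. Doublets were not called. The scripts were tested on simulated data. Gene coordinates are from GENCODE M21.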

Additional observations from a re-analysis of the deposited data

Results flagged for a closer look

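The number of genes read in 1 day 3 cell was 3216, against 1788 in the next of the 5 cells of that timepoint, a gap of 0.712 of the whole range. This cell carries T cell and NK cell transcripts beside low Cd79a and Cd79b. It was the 1 value marked among 26 groups of values compared for a cell far from the others, where chance marks about 1 in 20. The values are of cells, not of animals.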

How the results depend on the processing

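No paired analysis was possible because the cells carry replicate numbers in accession order only, which tie no cell of one timepoint to a cell of another. The labels name no animal and the methods give 1 mouse per timepoint, and depth limits single cells, so a gene with no read may be under detection. The genes lower at day 1, 38.5% of 1187, came to 21.7% with counts summed over cells, 20.6% with TMM, 20.1% with DESeq2 size factors and 25.6% with a pseudocount of 10 rpm. Those lower at day 2, 41.6% of 1413, came to 22.6%, 17.3% and 18.97% with the first 3 of these, and those higher at day 2, 9.55%, to 16.2% with TMM. With no filter on low values 10.4% of 10271 genes were higher and 13.8% lower at day 1, and 6.35% of 11264 were higher and 18.2% lower at day 2, where the larger number of genes compared comes from the setting itself. Without the cells that had 5 counts on a T cell, NK cell or macrophage marker, an alternative added after seeing the data, 17.4% of 1227 genes were higher at day 2 (23 and 5 cells left), and the Ms4a1 difference of day 2 from 6 h turned from -1.44 to 1.59. The cause was not tested. Genes per B cell went from 1793 to 1364.5 after thinning and to 1337.5 with at least 5 counts. Leaving out each cell in turn gave 19.4 to 24.4% higher and 35.5 to 41.6% lower at day 1, and 8.67 to 14.6% higher and 35.7 to 42.1% lower at day 2. The highest of these, 14.6%, came without the 6 h cell of replicate number 38, when 1182 genes were compared. The number of B cells was 73 to 75 under other thresholds. Of the main shares and counts under the alternatives, 15 were marked as moved and 34 as the same. For genes, only a chosen part of the named ones was followed. Of their values, 13 moved by more than the spread between cells, 1 turned and the rest, the larger part, were marked as the same. That spread is wide, so the same does not mean unchanged. With summed counts Fcer2a at day 1 went from -6.99 to -3.15 and H2-Aa from -4.39 to -1.65, both marked as the same.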
